A study of Mus musculus with 18 samples.

Results

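The comparison of antibody with buffer in the parental cells is described here: 3 samples of NIH3T3 cells electroporated with an antibody (IgG) were set against 3 samples electroporated with phosphate-buffered saline (PBS), which makes 6 of the 18 samples of the study. The samples were chosen by the labels for cell line and treatment and not by any measured value. NIH3T3 is an established line of mouse embryonic fibroblasts, and in this comparison Trim21 was present only as the cells' own gene. The study, titled as a method for acute and rapid degradation of endogenous protein, also had samples given bovine serum albumin (BSA), and the same 3 treatments in NIH3T3-mCherry-mTRIM21, a derived line with mouse TRIM21 fused to a red fluorescent protein (called the TRIM21 line here). Each group held 3 samples, whose titles carry the numbers 10, 11 and 14. Per the labels' protocols, 3000000 cells in 100 µl received 7.5 µg of protein, or PBS, and 2 pulses of 20 ms at 1400 V, and RNA was taken 16 h later. All groups were therefore electroporated, so the comparison shows nothing of electroporation itself. The labels give the antibody by a catalogue number and name no target for it, and they do not say whether the TRIM21 line is 1 clone or which promoter drives the fusion. They also do not say whether samples of a group came from separate cultures, so p-values measure only the spread between these samples, which may be technical.

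TRIM21 is a cytosolic ubiquitin ligase that binds the Fc part of antibodies with high affinity. When an antibody enters the cytosol on its target, TRIM21 assembles ubiquitin chains with the help of the conjugating enzymes Ube2w and Ube2n with Ube2v2, and the complex is handed to the proteasome, with the unfoldase Vcp helping on compact cargo. In immune and epithelial cells the same event can also signal to NF-kB and interferon regulatory factors, and Trim21 is itself an interferon-inducible gene. The counts analysed here report on transcripts alone.

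The gene counts of the 6 libraries ran from 19509017 to 24343537 per sample, and 14140 to 14425 genes had at least 1 count. PBS sample 14 stood apart from the other PBS samples before any gene was compared: the chi-square per degree of freedom between its counts and those of PBS samples 10 and 11 was 45.5 and 55.7, against 23.4 between samples 10 and 11. Its genes of highest GC content lay 0.26 below the mean of the 6 samples (median, log2 CPM), while those of PBS sample 11 lay 0.20 above it. CPM stands for counts per 1000000 counts in genes, after scaling by the TMM method. The share of counted reads outside genes was also highest in PBS sample 14, at 18.8%, with 14.8% to 17.3% in the others. The labelled cell type was checked with markers, whose summed CPM were taken without the TMM scaling. All 11 fibroblast markers passed the filter on low counts, with summed levels of 28014 to 29522 CPM in PBS and 26263 to 31697 CPM in IgG samples. Of the 7 macrophage markers 2 passed the filter, Csf1r with 51 to 76 and Cd14 with 80 to 135 counts per library. Summed markers of macrophages were at 6.84 to 8.75 CPM and 7.32 to 8.00 CPM, with the macrophage genes Emr1 and Tyrobp at 0 counts in every library. Those of B and plasma cells, epithelium and endothelium stood at or below 1.82 CPM in every library. In these bulk samples fewer cells of a type and less RNA per cell cannot be told apart.

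**Figure D1:**
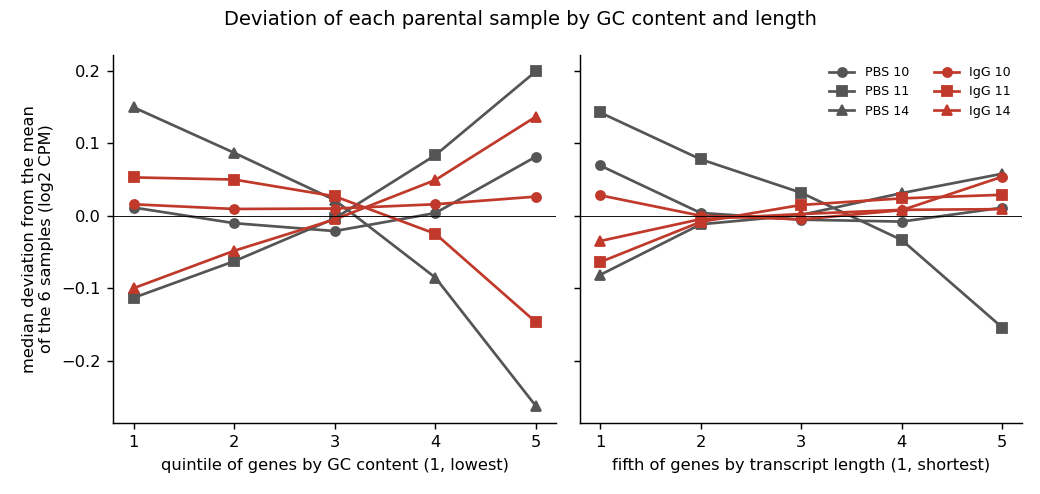
Median deviation of each sample from the mean of the 6 parental samples (log2 CPM, y axis) in quintiles of the tested genes by GC content (left) and by transcript length (right). Grey lines are PBS samples, red lines IgG samples, and marker shapes give the title number. PBS samples 11 and 14 lie at opposite ends of the highest GC quintile, at 0.20 and -0.26, with the IgG samples between them.

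No gene passed the test for a difference between IgG and PBS in the parental cells. Of 12140 genes tested, 0 passed an adjusted p of 0.05 (0.00%) with edgeR's quasi-likelihood test and Benjamini-Hochberg adjustment, and the smallest adjusted p was 1. DESeq2's Wald test and limma-voom on the same counts also called 0 genes. Before adjustment 325 genes lay under the threshold of 0.05 in edgeR's test. A share of 5% of the genes tested would be 607. Among them 88 genes had higher levels in IgG (0.725% of genes tested) and 237 had lower levels (1.95%). The 3 IgG values lay wholly above the 3 PBS values in 460 genes (3.79%) and wholly below them in 480 genes (3.95%).

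How large a difference these samples could still hold was read from the 95% interval of each gene's fold change. For 11302 genes (93.1%) the whole interval lay within 2-fold in either direction, and for 9310 genes (76.7%) within 1.5-fold. Of the 9007 genes with a mean of at least 10 CPM, 8971 (99.6%) were bounded within 2-fold and 8308 (92.2%) within 1.5-fold. The median standard error (SE) of a log2 fold change was 0.14. On the log2 scale the fold changes had a median of -0.0011, with percentile 5 at -0.30 and percentile 95 at 0.21. In total 21 genes had a fold change of 2 or more, and 0 of them reached a mean of 1 CPM. Leaving out PBS sample 14 also left 0 genes called, with a smallest adjusted p of 0.867 in the edgeR test, but raised the number under an unadjusted p of 0.05 to 618, with 284 higher and 334 lower. Without IgG sample 14 that number was 185.

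**Figure D2:**
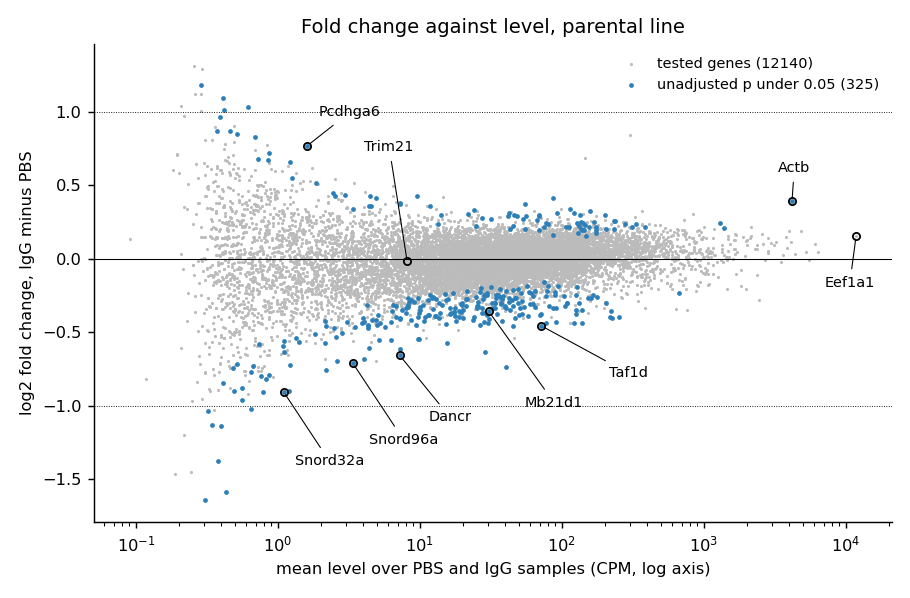
Log2 fold change of IgG minus PBS (y axis) against the mean level in the 6 parental samples (CPM, log axis), 1 point per tested gene. Blue points are the 325 genes under an unadjusted p of 0.05, none of which passed after adjustment, and circles mark named genes. Dotted lines are at a 2-fold difference, and the spread narrows with level, from Snord32a at -0.91 to Eef1a1, the gene with most counts, at 0.16.

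Trim21, the receptor on which the method rests, was present at a low level and did not separate the groups. Its counts were 151, 200 and 203 in PBS samples 10, 11 and 14 and 143, 173 and 179 in IgG samples 10, 11 and 14, the order kept for all triplets below. On the CPM scale these were 6.72, 8.10 and 9.73 in PBS and 6.64, 8.78 and 8.82 in IgG. In both groups sample 10 was lowest, and the groups overlapped. The log2 fold change was -0.018 (SE 0.15, 95% interval -0.32 to 0.29), and 0.13 without PBS sample 14. The BSA samples lay in the same range, at 8.41, 6.54 and 8.39 CPM, while the TRIM21 line held 984 to 1188 CPM under the 3 treatments, counts that include any read of the fusion that aligned to Trim21.

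Trim21 lies on chromosome 7 (GRCm38, 102557921 to 102565486, minus strand). Genes driven by type I interferon carry response elements that join copies of GAAA with 2 bases between them, so the core GAAANNGAAA was searched on both strands of RefSeq promoter windows (GRCm38.p6), from 250 bases before to 50 after each gene's start. It was found in 3.44% of all 32851 windows. Of the 33 interferon response genes tested below, 26 had a window, and 13 of these (50%) held the core in any of their windows. The first share is per window and the second per gene, and a gene can have several windows, so the shares are not directly comparable. The stretches of Trim21 and of 3 of those genes are shown to let the copies of this core be compared between them. Capitals mark the core and its overlapping copies, in either direction, and lower case the flanking bases. The 30 bases of Trim21 (chr7:102565447-102565476, minus strand) hold 2 overlapping copies at bases 14 to 29 after the start.
Trim21: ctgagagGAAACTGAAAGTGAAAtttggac
Isg15: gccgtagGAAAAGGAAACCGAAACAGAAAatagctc
Bst2: attccagGAAAATGAAACTGAAAggctgca
Ifit1: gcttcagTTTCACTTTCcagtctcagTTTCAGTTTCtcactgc
The Isg15 stretch is chr4:156200868-156200903 on the minus strand, that of Bst2 is chr8:71537580-71537609 on the minus strand and that of Ifit1 is chr19:34640778-34640820 on the plus strand. A match is a description of the letters and not evidence of a bound site. The 13 genes with the core had a median log2 fold change of -0.088 in IgG against PBS, with 4 higher and 9 lower, and the 13 without it a median of 0.023. The difference between these medians was not tested, nor was the split repeated with samples left out. The median of all 33 genes was -0.050, and 0.11 without PBS sample 14.

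Receptors for the Fc part other than Trim21 were nearly absent. Fcgr1, Fcgr3, Fcer1a, Fcamr and Pigr, which are cell surface receptors of leukocytes or epithelium, had 0 counts in all 6 libraries, and 3 counts, the limit that a count of 0 allows, correspond to 0.122 to 0.152 CPM per library. Fcer2a had 1 count in all. The inhibitory receptor Fcgr2b had 2 to 12 counts and the shared signalling chain Fcer1g 4 to 9 counts per library. The activating receptor Fcgr4 had 30 to 39 counts per library, with 1.34, 1.42 and 1.63 CPM in PBS and 1.49, 1.88 and 1.92 CPM in IgG. These values overlapped (log2 fold change 0.27, SE 0.28). The exception by level was Fcgrt, the neonatal Fc receptor, which recycles IgG from endosomes. It stood at 50.2, 68.1 and 57.1 CPM in PBS and 51.9, 53.5 and 70.8 CPM in IgG, and its log2 fold change was 0.0067 (SE 0.28). Neither group was the higher one for Fcgrt, since the highest IgG and the highest PBS sample differed by less than the spread within each group.

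The enzymes that supply TRIM21 with ubiquitin were expressed throughout. Of 16 genes in this list, all 16 were tested, 12 had higher and 4 had lower levels in IgG, and 0 passed the test, with a median log2 fold change of 0.046 beside -0.0011 over all tested genes. Ube2w, which places the first ubiquitin on TRIM21, was at 57.2, 62.1 and 71.9 CPM in PBS and 62.4, 67.8 and 57.8 CPM in IgG. Ube2n, which extends the chain, was at 73.2, 70.2 and 71.7 CPM in PBS and 77.6, 78.5 and 66.9 CPM in IgG. The groups overlapped for both enzymes and for Ube2v2, the partner of Ube2n, at 19.8 ± 3.23 CPM in PBS and 20.4 ± 2.08 CPM in IgG (SD, n = 3). Per kilobase of transcript, mean levels in PBS were 29.2 CPM for Ube2w, 18.6 CPM for Ube2n and 4.71 CPM for Ube2v2, all above the 2.93 CPM of Trim21.

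Uba1 and Nploc4 were the 2 members of that list without overlap between the groups, both higher in IgG, where 3.79% of all tested genes were. Uba1, the enzyme that activates ubiquitin for the whole cell, was at 580, 594 and 556 CPM in PBS and 627, 676 and 662 CPM in IgG, so all 3 IgG samples lay above all 3 PBS samples. Its log2 fold change was 0.18 (SE 0.11). Nploc4, a cofactor of Vcp, was at 102, 91.4 and 92.6 CPM in PBS and 103, 110 and 108 CPM in IgG (log2 fold change 0.17, SE 0.12), with PBS sample 10 close to IgG sample 10. Vcp itself was at 251 to 255 CPM in PBS and 248 to 277 CPM in IgG. The ubiquitin genes overlapped, and Ubb, at 0.911 to 2.49 CPM, is uncertain because reads that align to several places were not counted.

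No gene that senses DNA and RNA in the cytosol was called. Of 15 sensing genes tested, 8 had higher and 7 lower levels, and the median log2 fold change was 0.010. The groups did not overlap in 1 member higher and 1 lower in IgG, near the 3.79% and 3.95% of all tested genes. Mb21d1, which encodes the DNA sensor cGAS, was at 34.3, 35.8 and 32.9 CPM in PBS and 23.7, 30.5 and 26.2 CPM in IgG. All IgG samples lay below all PBS samples, with a log2 fold change of -0.36 (SE 0.14, unadjusted p = 0.0205 in edgeR's test, adjusted p = 1). Against BSA the IgG value was -0.14, and BSA against PBS gave -0.22, comparisons that share samples with the one described. In the TRIM21 line the log2 fold change was also -0.36, from 33.0, 48.0 and 33.3 CPM in PBS and 28.2, 28.3 and 32.3 CPM in IgG. There too the groups did not overlap, although IgG sample 14 and PBS sample 10 lay close together, and without PBS sample 11 of that line the value was -0.14.

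Downstream of the sensors the values were mixed. Tmem173, which encodes STING, the adaptor that cGAS activates, was at 13.0, 19.8 and 17.1 CPM in PBS and 17.0, 20.3 and 17.7 CPM in IgG. The adaptor of RNA sensing Mavs (log2 fold change 0.085) and the RNA sensor Ddx58 (0.035) overlapped between the groups, as did the kinase Tbk1 (-0.21) and its substrate Irf3 (-0.20). Samhd1, which breaks down DNA building blocks, was the 1 sensing gene with all IgG values above all PBS values, by 0.076. Irf7, an interferon-induced transcription factor, was low, at 0.979, 1.99 and 1.34 CPM in PBS and 0.883, 0.964 and 1.08 CPM in IgG. Its log2 fold change of -0.56 was opposite in sign to that in the TRIM21 line (0.79), where PBS sample 11 alone was at 0.100 CPM. Without that sample the TRIM21 line gave 0.37, and without parental PBS sample 11, the highest of its group, the parental line gave -0.24. The difference between the lines had an unadjusted p of 0.0358 and an adjusted p of 0.972 in edgeR's interaction test.

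No interferon response gene was called. Of 43 listed genes 33 were tested, 15 with higher and 18 with lower levels. The groups overlapped in all 33, beside 3.79% of all tested genes wholly higher and 3.95% wholly lower, shares that amount to few genes in a list of this size. The median log2 fold change was -0.050. Ifitm3, an antiviral membrane protein and the most abundant member, was at 176, 208 and 200 CPM in PBS and 182, 187 and 228 CPM in IgG. Usp18, which removes Isg15 from proteins, was at 1.47, 1.58 and 1.92 CPM in PBS and 0.743, 1.62 and 0.986 CPM in IgG, and IgG sample 11 lay within the PBS range. Its log2 fold change was -0.57 (SE 0.34), with -0.33 without IgG sample 10 and -0.92 without IgG sample 11. Of the genes with the core, those whose stretches are shown above were low as well. Ifit1 had a mean of 2.67 CPM in PBS and 1.65 CPM in IgG (log2 fold change -0.68, SE 0.54), Isg15 of 4.13 and 3.66 CPM, and Bst2 of 3.49 and 2.66 CPM. Others with the core were not low, among them Ifitm3, Eif2ak2 (means of 51.7 CPM in PBS and 46.2 CPM in IgG) and Stat2 (43.3 and 41.9 CPM). The mean score of the list, taken as log2 CPM with a prior of 2 counts and centred on the 6 samples, was -0.17, -0.079 and 0.31 in PBS and -0.16, 0.051 and 0.054 in IgG. PBS sample 14 had the highest score and PBS sample 10 the lowest, so the IgG samples lay inside the PBS range. Leaving out PBS sample 14 turned the median to 0.11.

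NF-kB targets and regulators, the other signalling arm named for TRIM21, had 11 tested members with higher and 17 with lower levels of 28, a median log2 fold change of -0.039 and 0 called. The chemokine Ccl2, which draws monocytes, was at 44.9, 52.9 and 42.8 CPM in PBS and 40.01, 39.4 and 35.1 CPM in IgG. All IgG values lay below the PBS values, with a log2 fold change of -0.30 (SE 0.12, unadjusted p = 0.0243 in edgeR's test), and the TRIM21 line gave -0.25. Cxcl1, which draws neutrophils, was at 4.41, 3.61 and 4.07 CPM in PBS and 3.53, 1.88 and 2.76 CPM in IgG, also without overlap. The 3 members without overlap were all lower in IgG, where 3.95% of all tested genes were. The most abundant members did not follow them: the growth factor Csf1 (log2 fold change 0.0067) and the prostaglandin synthase Ptgs2 (-0.11) overlapped between groups.

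Genes of MHC class I presentation had 4 higher and 10 lower members of 14 tested and a median of -0.062. B2m, the light chain of class I molecules, was at 370, 428 and 485 CPM in PBS and 416, 418 and 379 CPM in IgG. Tapbp, which loads peptides onto class I, was the member with the smallest p, at 115, 122 and 118 CPM in PBS and 131, 134 and 151 CPM in IgG (log2 fold change 0.23, SE 0.13). Psme1 and Psme2 encode an activator of the proteasome and are named after their values were seen. They were the 2 members wholly lower in IgG, where 3.95% of all tested genes were. Their log2 fold changes were -0.088 (SE 0.10) and -0.073 (SE 0.11), each smaller than its SE. Tapbp was the 1 member wholly higher in IgG, where 3.79% of all tested genes were. For Tapbp IgG against BSA gave 0.0046 where BSA against PBS gave 0.23.

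The proteasome, the end point of the TRIM21 route, had narrow intervals. All 32 subunit genes were tested and all 32 had an interval within 1.5-fold, with 13 higher, 19 lower, 0 called and a median of -0.024. Psmd2, a regulatory subunit, was at 410, 385 and 357 CPM in PBS and 399, 419 and 420 CPM in IgG, and Psmb1, a core subunit, at 329, 304 and 269 CPM in PBS and 332, 291 and 254 CPM in IgG. Both overlapped. Of 32 subunit genes 4 did not overlap, each lower in IgG, where 3.95% of all tested genes were. Among them Psmd12 had a log2 fold change of -0.19 (SE 0.11) and the ATPase Psmc6 of -0.19 (SE 0.098). In the TRIM21 line the list's median was -0.24, with 1 of 32 genes higher. Without PBS sample 11 of that line it was -0.092, with 6 of 32 higher. With all samples the test of the difference between the lines called 0 of the 32. The list's median in the parental line was -0.11 without PBS sample 14 and 0.052 without PBS sample 10.

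**Figure D3:**
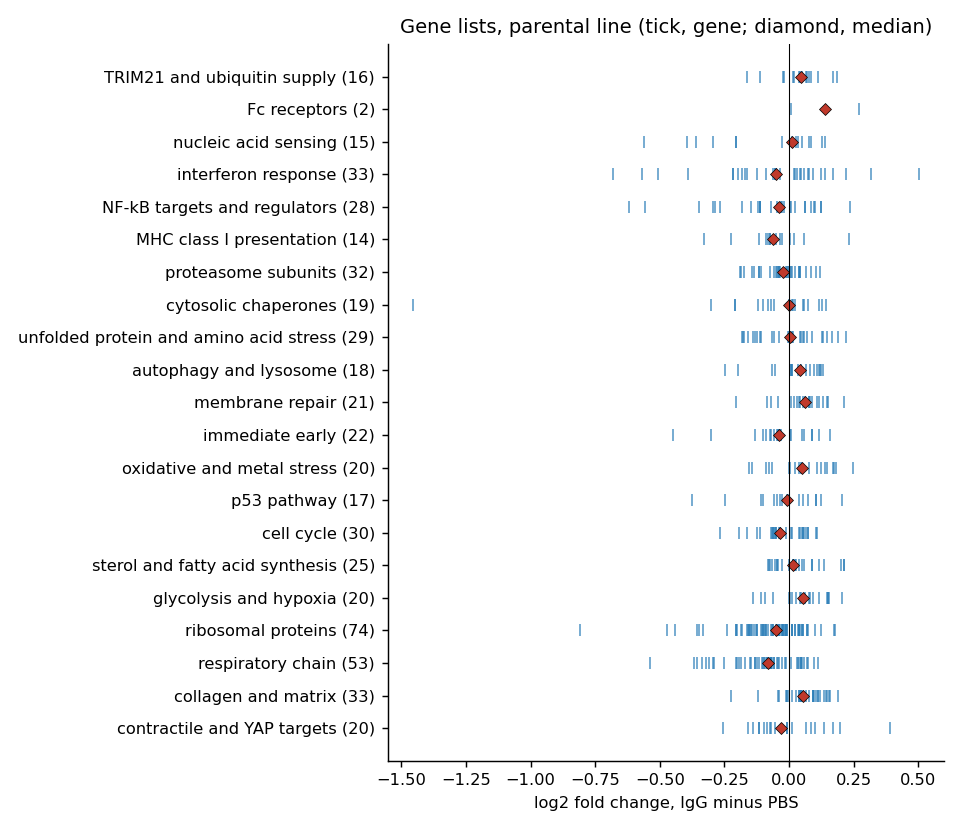
Log2 fold change of IgG minus PBS (x axis) for the tested members of 21 gene lists in the parental line, with the number tested in brackets. Each tick is a gene and each diamond a list's median, and the medians lie between -0.081 (respiratory chain) and 0.14 (Fc receptors, 2 genes).

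Lists of cell stress genes held no called gene either. Cytosolic chaperones had a median of 0.0013 with 10 higher and 9 lower genes. Among them Hspa8, the constitutive heat shock protein, was at 934, 927 and 913 CPM in PBS and 1022, 1075 and 964 CPM in IgG, with all IgG values above PBS by a log2 fold change of 0.14. Its co-chaperone Dnaja1 went the other way, at 50.3, 51.4 and 60.1 CPM in PBS and 40.9, 44.2 and 46.0 CPM in IgG. The Dnaja1 log2 fold change was -0.30 (SE 0.11, unadjusted p = 0.0102 in edgeR's test), again without overlap. The heat-inducible Hspa1a was barely counted, at 0.623, 0.365 and 0.0958 CPM in PBS and 0.0929, 0.102 and 0.197 CPM in IgG. The log2 fold change of Hspa1a was -1.45, with an SE of 0.87, and -0.85 without PBS sample 10.

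The unfolded protein response list had 16 higher and 13 lower genes of 29 and a median of 0.0044. Hsp90b1, an endoplasmic reticulum chaperone, was at 1727, 1776 and 2312 CPM in PBS and 1597, 1713 and 1809 CPM in IgG, with PBS sample 14 highest. Edem1, which takes part in clearing misfolded glycoproteins, did not overlap (log2 fold change 0.22, SE 0.11). Autophagy and lysosome genes had 14 higher and 4 lower of 18 and a median of 0.041. Their smallest p belonged to the autophagy receptor Tax1bp1, at 121, 128 and 160 CPM in PBS and 105, 125 and 116 CPM in IgG, values that overlapped (log2 fold change -0.25, SE 0.10). Without PBS sample 14, its highest sample, the value was -0.11.

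Oxidative and metal stress genes had 14 higher and 6 lower of 20 and a median of 0.048. G6pdx, which makes NADPH in the pentose phosphate pathway, was at 128, 115 and 132 CPM in PBS and 144, 150 and 151 CPM in IgG. All IgG values lay above the PBS values, with a log2 fold change of 0.25 (SE 0.091, unadjusted p = 0.014 in edgeR's test). The gene lies within the span of Ikbkg on the opposite strand, which had a log2 fold change of 0.10. In the TRIM21 line G6pdx gave -0.13, or -0.019 without PBS sample 11 of that line, and the difference between lines had an unadjusted p of 0.00936 and an adjusted p of 0.972 in edgeR's interaction test. Ftl1, a ferritin chain that stores iron, was at 1477, 1397 and 703 CPM in PBS and 1434, 930 and 1270 CPM in IgG, with the lowest value in PBS sample 14 and the next in IgG sample 11.

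Membrane repair genes, relevant to cells that had been electroporated, had 17 higher and 4 lower of 21, a median of 0.063, and all 21 intervals within 1.5-fold. Ptrf, which encodes the caveolar coat protein cavin 1, was at 1283, 1289 and 1301 CPM in PBS and 1370, 1517 and 1599 CPM in IgG, without overlap (log2 fold change 0.21, SE 0.098, unadjusted p = 0.0437 in edgeR's test). The PBS samples agreed closely for Ptrf and the IgG samples spread more widely. Anxa1, an annexin that binds damaged membrane, was the member without overlap in the other direction, at 813, 758 and 835 CPM in PBS and 713, 742 and 631 CPM in IgG. IgG against BSA gave 0.024 for Ptrf and -0.11 for Anxa1, and BSA against PBS gave 0.19 and -0.10.

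In lists of general cell function the PBS samples spread more widely than the groups differed. Ribosomal protein genes had 21 higher and 53 lower of 74 and a median of -0.050, and respiratory chain genes 13 higher and 40 lower of 53 and a median of -0.081. The ribosomal scores were 0.23, 0.19 and -0.34 in PBS and 0.18, -0.22 and -0.044 in IgG, so the lowest and the highest were both PBS samples. Rplp0, a protein of the ribosomal stalk, was at 3148, 2921 and 1545 CPM in PBS and 3137, 2072 and 2943 CPM in IgG. Genes of both lists are short, with median transcript lengths of 1107.5 and 1232 bases beside 3402.5 over all tested genes. The shortest quintile of all tested genes had a median log2 fold change of -0.071 and the longest quintile one of 0.062. With transcript length as an offset in each library the medians were 0.016 for ribosomal and -0.014 for respiratory chain genes. Without PBS sample 14 they were -0.17 and -0.16, and without PBS sample 10 they were 0.029 and 0.0025. The part of transcript length in these medians was not tested, and that offset was added after seeing the data.

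Sdhd, a membrane anchor of succinate dehydrogenase, was at 137, 148 and 125 CPM in PBS and 123, 123 and 113 CPM in IgG, without overlap (log2 fold change -0.19, SE 0.092). Collagen and matrix genes had 25 higher and 8 lower of 33 and a median of 0.053, and Col1a2, a chain of type I collagen, was at 4975, 5671 and 5857 CPM in PBS and 4838, 5112 and 6423 CPM in IgG. Actb, cytoplasmic actin, was the contractile gene with separated groups, at 4108, 3891 and 2836 CPM in PBS and 4833, 4166 and 5209 CPM in IgG (log2 fold change 0.39, SE 0.17). In that gene PBS sample 14 was lowest, and without it the value was 0.25. IgG against BSA gave 0.050 and BSA against PBS 0.34. Glycolysis genes had 16 higher and 4 lower of 20 (median 0.053), sterol and fatty acid synthesis genes 16 and 9 of 25 (0.015), cell cycle genes 13 and 17 of 30 (-0.035), p53 pathway genes 7 and 10 of 17 (-0.0076), immediate early genes 8 and 14 of 22 (-0.039) and contractile genes 8 and 12 of 20 (-0.032). None of these lists held a called gene.

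Of the 21 list medians, 4 kept their sign when each of the 6 samples was left out in turn and under every other setting run. These were TRIM21 and ubiquitin supply, with 0.029 to 0.071 over the samples left out, membrane repair with 0.051 to 0.080, oxidative and metal stress with 0.025 to 0.15, and NF-kB targets and regulators with -0.058 to -0.027. In the same order, the medians of BSA against PBS were 0.051, 0.061, 0.16 and 0.018. Those of IgG against BSA were -0.0017, 0.024, -0.037 and -0.070. Both comparisons share samples with the one described. In the TRIM21 line the medians of IgG against PBS were -0.11, -0.026, -0.10 and 0.14 in that order. Each was opposite in sign to the parental median of its list. Without PBS sample 11 of that line they were 0.014, -0.012, -0.031 and -0.016. The difference between the lines was not tested for these medians.

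The 6 genes with the smallest unadjusted p were all lower in IgG, and 3 of them are snoRNAs or a noncoding RNA. Taf1d, a subunit of the factor that starts transcription of ribosomal RNA genes by RNA polymerase I, was at 79.5, 77.6 and 89.7 CPM in PBS and 61.2, 65.1 and 53.7 CPM in IgG. Every IgG sample lay below every PBS sample by a clear gap (log2 fold change -0.46, SE 0.10, unadjusted p = 0.00026 in edgeR's test, adjusted p = 1). In the TRIM21 line the levels were 82.4, 78.2 and 80.3 CPM in PBS and 73.5, 62.8 and 72.1 CPM in IgG, a log2 fold change of -0.21, again without overlap. Taf1d (chromosome 9, 15306214 to 15316991, plus strand, GRCm38) holds 8 annotated snoRNA genes on its span.

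Dancr, a noncoding RNA known for holding progenitor cells undifferentiated, was at 9.04, 9.28 and 8.10 CPM in PBS and 6.23, 5.84 and 4.68 CPM in IgG. The groups did not overlap, and the log2 fold change was -0.66 (SE 0.15, 95% interval -0.97 to -0.35, unadjusted p = 0.000295 in edgeR's test, adjusted p = 1). BSA against PBS gave -0.22 and IgG against BSA -0.44, so the BSA level lay between the others. The TRIM21 line, which shares no sample with this comparison, held 9.13, 9.10 and 8.62 CPM in PBS and 7.26, 6.33 and 6.19 CPM in IgG, also without overlap (-0.44). Averaged over both lines the log2 fold change of Dancr was -0.55 (SE 0.10, adjusted p = 0.584 in edgeR's test). That average called 0 of 12140 genes (0.00%), with 670 under an unadjusted p of 0.05. Dancr lies on chromosome 5 (74093060 to 74095406, plus strand, GRCm38) and overlaps the gene of the snoRNA Snora26.

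Snord96a and Snord32a are small nucleolar RNAs of the box C/D class, which guide methylation of ribosomal RNA. Snord96a was at 3.96, 4.17 and 4.41 CPM in PBS and 2.65, 2.59 and 2.42 CPM in IgG, with little spread within either group (log2 fold change -0.71, SE 0.15, unadjusted p = 0.000219 in edgeR's test). Snord32a was at 1.34, 1.66 and 1.29 CPM in PBS and 0.929, 0.863 and 0.493 CPM in IgG (-0.91, SE 0.23). In the TRIM21 line the log2 fold changes were -0.034 for Snord96a and 0.17 for Snord32a, and the interaction test of edgeR gave unadjusted p-values of 0.0058 and 0.00335 with an adjusted p of 0.972 for both. Each gene lies inside a host gene on the same strand: Snord96a (chromosome 11, 48802032 to 48802112) in Rack1, which the counts list as Gnb2l1 and which had a log2 fold change of 0.14 (SE 0.12), and Snord32a (chromosome 7, 45127382 to 45127464) in Rpl13a, with -0.022 (SE 0.19). Reads of a snoRNA and of its host's unspliced transcript cannot be told apart in these counts. The libraries were also polyA-enriched, and these counts are not read as levels of the mature snoRNAs. With transcript length as an offset the log2 fold changes were -0.44 and -0.63.

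Smc4, a core subunit of the condensin complex that compacts chromosomes, was at 235, 232 and 282 CPM in PBS and 183, 202 and 183 CPM in IgG (log2 fold change -0.39, SE 0.10). Luc7l3, a splicing factor bound to the U1 particle, was at 122, 138 and 158 CPM in PBS and 103, 107 and 97.4 CPM in IgG (-0.44, SE 0.11). In both genes the groups did not overlap and PBS sample 14 was the highest of all. Without that sample the values were -0.29 for Smc4 and -0.34 for Luc7l3. For Luc7l3 the difference lay between BSA and PBS (-0.41) and not between IgG and BSA (-0.026), while for Smc4 both steps were alike (-0.21 and -0.19).

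**Figure D4:**
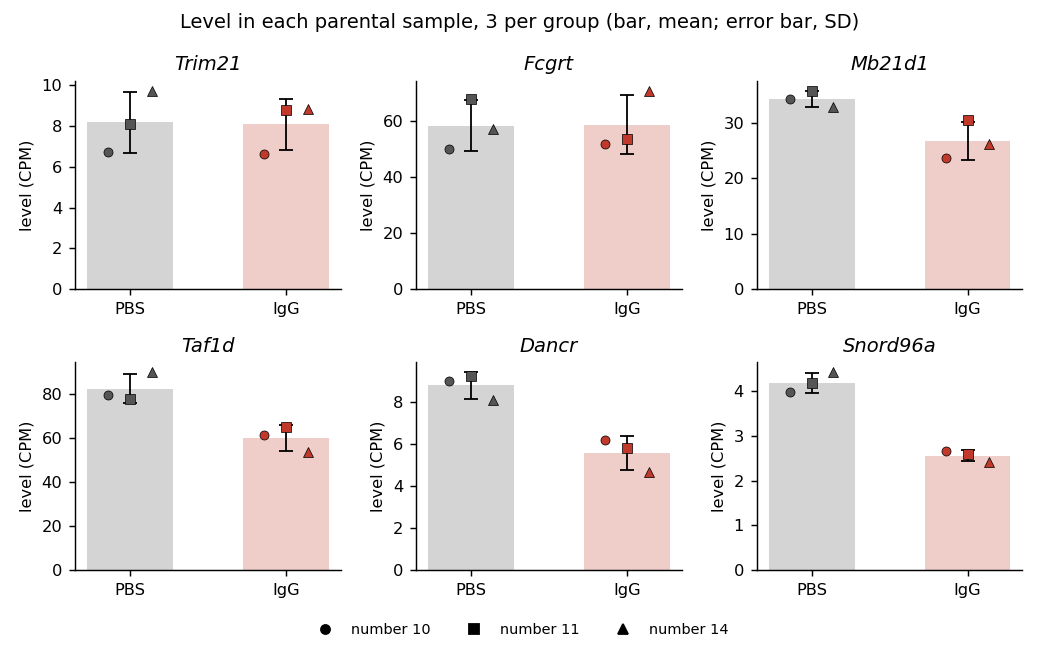
Level of 6 genes in each parental sample (CPM, y axis from 0) after PBS (grey) or IgG (red). Bars are means, error bars the SD over 3 samples, and marker shapes the title numbers. Trim21 and Fcgrt overlap between the groups, while Mb21d1, Taf1d, Dancr and Snord96a do not.

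Among genes with a mean of at least 1 CPM and no overlap, the largest differences were below 2-fold. At the low end stood Snord32a, the long noncoding RNA 2310001H17Rik (log2 fold change -0.90), Clec2d (-0.73), Snord96a, the mitochondrial protein Bola1 (-0.70), Dancr, Lrrc29 (-0.64) and Ccdc17 (-0.63). Clec2d, a lectin that is a ligand of natural killer cell receptors, was the most abundant of them, at 45.1, 43.8 and 62.0 CPM in PBS and 34.8, 29.5 and 26.4 CPM in IgG. Among those at the high end were Pcdhga6, a gamma protocadherin (0.77), the sodium channel subunit Scnn1a (0.63), Tecta (0.62), Tspan33 (0.55), Sh2d4a (0.51), the phosphatase Phospho1 (0.49) and Oplah of the glutathione cycle (0.47). Of these 7 only Phospho1 exceeded 3 CPM in any sample, with 5.16, 6.28 and 4.50 CPM in PBS and 6.97, 6.29 and 9.27 CPM in IgG, where PBS and IgG samples 11 nearly met. Pcdhga6 shares its last exons with the other genes of its cluster, so its count is uncertain.

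The same treatment in the TRIM21 line gave a second set of 6 samples with which these differences could be set side by side. Of the 237 genes lower at an unadjusted p under 0.05 in the parental line, 171 (72.2%) were also lower in the TRIM21 line, where 48.3% of all tested genes were. The median log2 fold change of the 237 was -0.36 in the parental line and -0.098 in the TRIM21 line. In the TRIM21 line 48 of them (20.3%) did not overlap in that direction, beside 716 of all tested genes (5.90%). Of the 88 higher genes, 63 (71.6%) were higher there, beside 51.7% of all tested genes, with medians of 0.29 and 0.071, and 7 of them (7.95%) did not overlap, beside 371 of all tested genes (3.06%). The lower genes had a median transcript length of 2597 bases and the higher ones of 3931.5 bases. In both lines the shortest quintile of all genes had negative and the longest quintile positive medians (-0.033 and 0.066 in the TRIM21 line). The median GC content was 45.6% in the lower and 49.0% in the higher genes, beside 49.5% over all tested genes. The lowest and highest GC quintiles had medians of -0.041 and 0.13 in the TRIM21 line. In the parental line these were -0.027 and -0.013. The part of transcript length or GC content in the shares of genes that went the same way was not tested. Leaving out each IgG or PBS sample of the TRIM21 line in turn gave 59.9% to 78.9% for the lower and 59.1% to 85.2% for the higher genes. In both cases the share was lowest without its PBS sample 14 and highest without its PBS sample 11. Of all tested genes, 47.1% were lower and 52.9% higher in that line without its PBS sample 14. Without its PBS sample 11 these all-gene shares were 43.2% and 56.8%. Across all 12140 genes, which are not independent replicates, the 2 sets of fold changes had a Pearson correlation of 0.047 and a Spearman correlation of 0.090. The test of the difference between the lines called 0 genes (0.00%) with edgeR, DESeq2 and limma-voom, with 221 under an unadjusted p of 0.05 and a smallest adjusted p of 0.972 in edgeR's test.

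**Figure D5:**
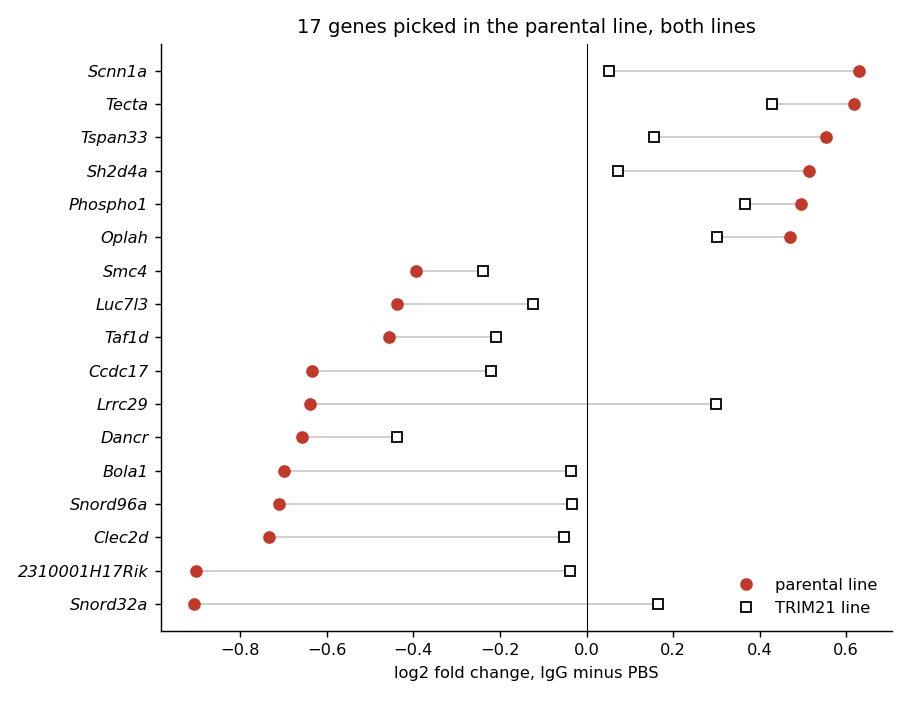
Log2 fold change of IgG minus PBS (x axis) in the parental line (red circles) and in the TRIM21 line (open squares) for 17 of the genes with the largest separated differences or the smallest p in the parental line, which chose them. Pcdhga6, whose count is uncertain, is not drawn. Of the lower genes, Dancr lies closest to its parental value in relative size, at -0.44 against -0.66, and Snord32a and Lrrc29 lie on the other side of 0.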

How the data were processed

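RNA was measured in 18 libraries, of which the 3 IgG and 3 PBS libraries of the parental line are compared here. Libraries were polyA-enriched and strand-specific, per the labels' protocols. What the authors deposited are raw read counts per gene symbol, not normalized. The submitters' processing notes name bcl2fastq 2.19.1.403, FastQC 0.11.5, STAR 2.5.1b, HTSeq 0.6.0, DESeq2 1.6.3 and the build mm10, with no role or setting for each. The annotation was not given in the sources used here. The last 5 lines of each table, which total reads outside the gene counts, stayed out of library sizes and tests. Reads aligned to several places, 36.9% to 38.9% of those listed, were among them, so genes with near-identical copies are undercounted.

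Counts were analysed in R 4.3.3 with edgeR 4.0.16. Of 24062 genes, filterByExpr (minimum count 10) kept 12140. TMM factors were 0.977 to 1.03 in the 6 libraries. A quasi-likelihood model with 1 mean for each of 6 groups was fitted to all 18 samples, with Benjamini-Hochberg adjustment and a threshold of 0.05. SEs came from the F statistic. The scripts were tested on simulated data. Positions, lengths and GC content came from GENCODE on GRCm38, to which 22750 symbols matched directly and 935 by an older symbol.

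The comparison, the 21 gene lists and the marker lists were chosen with earlier results of these data known, and no list was given a test. Named genes are all tested members of the TRIM21 and ubiquitin supply, Fc receptor and sensing lists, the 8 highest and 8 lowest fold changes among genes of at least 1 CPM without overlap, the 6 smallest p, the 2 most abundant and 2 smallest p of every other list, and the 3 genes with most counts. Values are given for part of these genes, and the others are not reported here. Alternatives were DESeq2 size factors, DESeq2 1.42.0, limma-voom (limma 3.58.1), other filters and sample sets, the title number as a block, GC content or transcript length as an offset (the last added after seeing the data), and leaving out each sample (for the TRIM21 line, added after seeing the data).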

Additional observations from a re-analysis of the deposited data

Results flagged for a closer look

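In 3 of the 21 gene lists every IgG sample lay on one side of its line's PBS mean in the parental line and on the opposite side in the TRIM21 line. The value is the mean over tested members of log2 CPM with a prior of 2 counts, minus the mean of the PBS samples of the same line, and the difference between the lines was not tested for these list means. For TRIM21 and ubiquitin supply the mean was 0.0479 in the parental line and -0.0951 in the TRIM21 line. The single IgG samples 10, 11 and 14 gave 0.033, 0.064 and 0.047 in the parental and -0.15, -0.083 and -0.056 in the TRIM21 line. Without TRIM21 line PBS sample 11 the mean of that line was -0.012, and its IgG samples lay between -0.070 and 0.028, so on both sides of 0. For nucleic acid sensing the means were -0.0832 and 0.112, with IgG sample 14 at -0.0084 in the parental line. When single IgG or PBS samples of the TRIM21 line were left out, this pattern held only in the fit without IgG sample 10. By the median log2 fold change the lines were not opposite for this list, with 0.010 and 0.079, and without TRIM21 line PBS sample 11 the mean of that line was 0.049. For membrane repair the means were 0.0496 and -0.0258, and without TRIM21 line PBS sample 11 the latter was -0.00048, with IgG samples at -0.017 to 0.018. None of the single genes of the 3 lists passed the adjusted test of the difference between the lines.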

How the results depend on the processing

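The count of genes called between IgG and PBS in the parental line was 0 under every setting run, as was that for the difference between the lines, and the smallest adjusted p was 0.129 to 1 over the settings. The title numbers were not taken to pair the samples. Deviations from the group mean of same-numbered IgG and PBS samples correlated across genes by 0.50, -0.14 and -0.17 for numbers 10, 11 and 14, and 1 of 3 IgG samples correlated best with its own number. With the replicate block 554 genes lay under an unadjusted p of 0.05 (195 higher, 359 lower) in place of 325, with a smallest adjusted p of 0.281, and with the block and a GC offset 833 (389 higher, 444 lower). A GC offset alone gave 163 higher genes. Leaving out each sample gave 185 to 618 genes under that p, with 38 to 284 higher (lowest without IgG sample 14, highest without PBS sample 14) and 147 to 334 lower, and 840 to 1645 genes higher and 819 to 1694 lower without overlap, with 2 values against 3 in place of 3 against 3. Those left-out samples moved the medians of 17 of the 21 lists across 0, of Fc receptors over -0.16 to 0.19, p53 pathway over -0.068 to 0.049, sterol and fatty acid synthesis over -0.022 to 0.11, nucleic acid sensing over -0.12 to 0.049, collagen and matrix over -0.028 to 0.11, cell cycle over -0.11 to 0.055, contractile genes over -0.11 to 0.059, glycolysis over -0.021 to 0.14, immediate early genes over -0.095 to 0.023, interferon response over -0.15 to 0.11, autophagy and lysosome over -0.020 to 0.090, unfolded protein response over -0.032 to 0.056, chaperones over -0.042 to 0.014 and MHC class I over -0.083 to 0.0019, beside the proteasome, ribosomal and respiratory chain lists given above; the cause was not tested. For the average over both lines the replicate block called 1 of 12140 genes (0.00824%), Dancr (log2 fold change -0.55, SE 0.080, adjusted p 0.0338 with edgeR), in place of 0. Of 12 fits that each left out 1 of the IgG or PBS samples of either line, 1, without TRIM21 line PBS sample 10, kept Dancr under the threshold, with adjusted p-values of 0.0413 to 0.252. The block changed no other call.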
